A study of Mus musculus with 10 samples.

Results

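The genes described here encode nuclear subunits of respiratory complexes II to V. Members were the rows of a count table of 55492 gene symbols named Sdha, Sdhb, Sdhc, Sdhd or Cyc1, or with names starting with Uqcr, Atp5 or Cox4 to Cox8. Pseudogene names holding -ps were left out, and a row needed 10 or more counts in at least 2 of the 10 libraries. Of 59 names, 10 held -ps, with at most 58 counts in a library, and 49 were candidates. The rule kept 45 of them: 4 in complex II, 8 in complex III, 16 in complex IV and 17 in complex V. Of the 45, 44 are annotated as protein coding. The exception, Cox6c2, is annotated as a processed pseudogene of the Cox6c type. The 4 candidates below the rule were Uqcrc1, a core subunit of complex III with 3 counts in 1 library and 0 in the others, Cox8b with 4 counts in each of 2 naive libraries, and Cox7b2 and Cox8c at 0 counts throughout.

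Spleen B cells of mice were profiled by RNA-seq in 4 groups: naive B cells on day 0 from WT mice (2 libraries) and KO mice (2), and induced germinal center B cells (iGCB) on day 4 from WT mice (3) and KO mice (3). KO mice carried floxed Pcbp1 alleles (fl/fl) and Mb1-Cre, a Cre driven from the Cd79a locus and therefore active from early B cell progenitors. Pcbp1 encodes an RNA-binding protein that also carries iron to client proteins. iGCB cells are B cells cultured on 40-LB cells, fibroblasts engineered to present CD40 ligand and BAFF. Age, strain and sex are not given in the labels, nor is the Cre status of WT mice or the number of mice behind the libraries, so a p-value here speaks only of the spread among the libraries, which may be technical.

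Complex II, succinate dehydrogenase, oxidises succinate in the citric acid cycle and passes the electrons to ubiquinone. Complex III passes them to cytochrome c and complex IV on to oxygen, and both III and IV pump protons across the inner mitochondrial membrane. Complex V, ATP synthase, uses the return of those protons to make ATP. Complex II is made entirely from nuclear genes, while III, IV and V each also hold subunits encoded by mitochondrial DNA. Resting B cells are metabolically quiet, and activated germinal center B cells rely heavily on oxidative phosphorylation. Several of the nuclear subunit genes are known targets of the transcription factors NRF1 and GABP, the latter an ETS family factor.

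Promoter letters are shown for 4 members: Sdhd, whose rise in iGCB cells lay near the middle of the members, Cox6a1, which was among those that rose more, Atp5l, which fell, and Cox6b2, which had the largest rise. The stretches come from RefSeq promoter windows on GRCm38.p6, each on the minus strand and ending before the transcription start. Capitals mark the word as bound by NRF1, GCGCA and GCGC with 1 base between, or the word CCGGAAG, as bound by ETS factors, each searched on both strands. The Sdhd stretch covers chr9:50603850-50603949, Cox6a1 chr5:115348982-115349158, Atp5l chr9:44920743-44920992 and Cox6b2 chr7:4753095-4753194.
Sdhd: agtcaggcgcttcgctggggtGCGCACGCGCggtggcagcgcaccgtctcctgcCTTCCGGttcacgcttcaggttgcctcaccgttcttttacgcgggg
Cox6a1: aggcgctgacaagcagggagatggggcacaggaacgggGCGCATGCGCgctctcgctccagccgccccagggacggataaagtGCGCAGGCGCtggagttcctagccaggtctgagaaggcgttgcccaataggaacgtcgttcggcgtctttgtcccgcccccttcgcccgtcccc
Atp5l: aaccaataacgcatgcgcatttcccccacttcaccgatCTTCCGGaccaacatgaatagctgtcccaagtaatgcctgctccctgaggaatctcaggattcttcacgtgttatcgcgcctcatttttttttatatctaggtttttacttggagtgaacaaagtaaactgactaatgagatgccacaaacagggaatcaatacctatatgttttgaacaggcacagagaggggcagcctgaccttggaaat
Cox6b2: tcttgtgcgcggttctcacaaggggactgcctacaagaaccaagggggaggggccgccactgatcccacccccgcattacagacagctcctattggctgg
The Sdhd stretch holds both words, Cox6a1 the NRF1 word at 2 places and Atp5l the ETS word. The Cox6b2 stretch holds neither.

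Windows running from 250 bases before to 50 bases after the start were matched for 33 of the 44 protein-coding members. The NRF1 word was in 9 of the 33 (27.3%) and in 5.18% of 26994 genes with a window. The ETS word was in 13 of 33 (39.4%) against 9.92% of all genes. Other words, searched on both strands, were closer to their share among all genes. The Sp1 word GGGCGG was in 39.4% of members against 38.2%, the CCAAT box in 57.6% against 41.0%, the E box CACGTG in 12.1% against 8.09%, and the YY1 word AAGATGGC in 9.09% against 3.18%. These matches are a description of letters, not of binding. Members with both the NRF1 and the ETS word were Sdhd, Cox6a1, Atp5h and Atp5k.

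Total counts per library ran from 33400672 to 63576147. Among counts from 1 to 20, 17.7% to 26.9% were odd, so most low counts were even and 1 count need not be 1 independent molecule. Pcbp1 had 9032 and 3327 counts in naive WT cells, 266 and 20 in naive KO cells, 5059, 11745 and 13220 in iGCB WT cells, and 130, 64 and 88 in iGCB KO, so KO libraries were low at both stages. All 6 B cell markers were detected in every library, summing to 4050 to 8200 CPM (counts scaled to a common library total). Cd79a, whose locus carries Mb1-Cre, was at 1390 and 1170 CPM in naive WT cells and 432 and 414 in naive KO cells. In iGCB cells it was at 791, 822 and 773 CPM in WT and 391, 438 and 342 CPM in KO. It was called lower in KO at both stages (edgeR, adjusted p = 0.0126 and 0.00794). The part of the Cre allele in KO against WT differences was not tested. The list of activated and germinal center genes summed to 393 to 836 CPM in naive and 5180 to 5880 CPM in iGCB libraries. Xist was high in naive WT 1 and naive KO 1, which lacked Y-linked counts beyond 10, and the remaining 8 libraries showed the male pattern. Within the naive stage, sex and library number cannot be told apart.

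A pair of features of the libraries touched the members themselves. iGCB WT 3 stood apart: its median member was 0.59 above the other 2 iGCB WT libraries on the log2 scale, with 42 of 45 members above, while the median over all 21010 tested genes was 0.00. The offset was uneven. Atp5k was 3.28 times the mean of the other 2 libraries there, Atp5g3 2.46 times, Atp5e 2.26 times and Uqcr11 2.22 times, whereas Cox7a2l was at 0.998 times, and Sdhc and Atp5l at 1.04 times. Within the naive stage, the libraries numbered 1 were above those numbered 2, with a member median of 0.41 (log2) against -0.02 for all genes. In 32 of 45 members (71.1%) both naive libraries numbered 1 were above both numbered 2, against 25.9% of all genes tested.

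**Figure D1:**
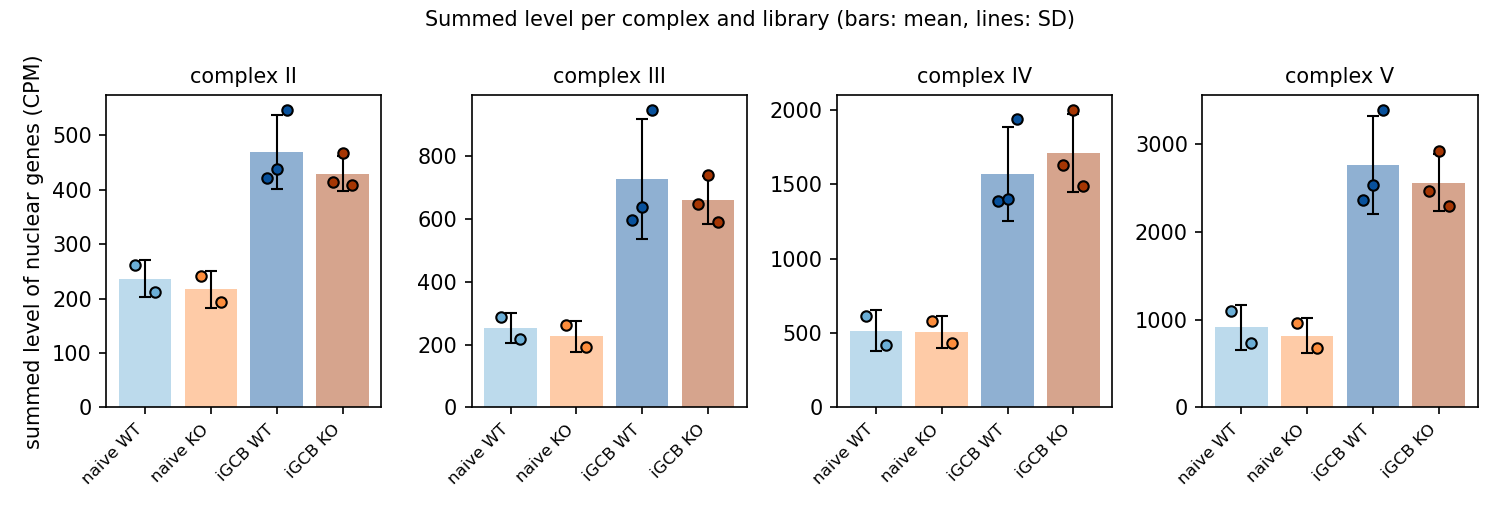
Summed level of the nuclear genes of each complex in CPM, by library. Bars are group means, lines are SD, and points are libraries in replicate order; all 6 iGCB libraries lie above all 4 naive libraries in each complex, and the highest WT point is iGCB WT 3.

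The first question was how the nuclear subunit genes differed between naive and iGCB cells. In WT cells 36 of the 45 members rose in iGCB, by a median of 1.78 on the log2 scale over all 45, and 2 fell. Among all genes tested 24.7% rose and 31.7% fell, with a median log2 fold change of -0.25. In KO cells 36 members rose and 2 fell, with a member median of 1.90. Over all genes the shares in KO were 24.8% higher and 31.4% lower, with a median of -0.26. Atp5l fell in both genotypes. The other fall was that of Atp5a1 in WT and that of Cox6a2 in KO, both genes with low counts in most libraries. Calls are those of edgeR's quasi-likelihood test at a Benjamini-Hochberg adjusted p under 0.05 over all genes. Across both genotypes 35 members rose in each, Sdha rose in WT alone and Atp5h in KO alone, and the difference between genotypes was not called for either. In 40 members every iGCB WT library lay above both naive WT libraries, against 32.2% of all genes, and in 2 every one lay below, against 40.2%. In KO these counts were 39, against 34.2%, and 3, against 41.3%.

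By complex, all 4 genes of complex II rose in WT (median 1.66), 7 of 8 of complex III (1.80), 12 of 16 of complex IV (1.85) and 13 of 17 of complex V (1.86). In KO cells 3 of 4, 7 of 8, 12 of 16 and 14 of 17 rose, with medians of 1.60, 1.90, 1.67 and 2.01. Summed over its genes, complex II stood at 237 ± 33.8 CPM in naive WT (SD, n = 2) and 469 ± 67.9 CPM in iGCB WT (SD, n = 3), a ratio of 1.98. Complex III went from 253 ± 49.0 to 728 ± 191 CPM (ratio 2.88), complex IV from 515 ± 137 to 1570 ± 317 CPM (3.05) and complex V from 913 ± 258 to 2760 ± 555 CPM (3.02). In KO cells the 4 ratios were 1.98, 2.92, 3.36 and 3.13. Taken as a whole, members made up 0.158% to 0.213% of counts in naive libraries and 0.479% to 0.662% in iGCB libraries. CPM values are shares of a library, so in these bulk samples fewer cells of a type and less RNA per cell cannot be told apart.

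Other cell types differed between the stages. The 12 myeloid markers summed to 51.2 to 498 CPM in naive and 7.3 to 55.2 CPM in iGCB libraries, where 1 to 5 of the 12 were at 0. The 8 erythroid and platelet markers summed to 26.5 to 218 CPM in naive and 0.526 to 6.0 CPM in iGCB libraries, with 1 to 4 at 0. The 12 fibroblast markers, listed because the feeder cells are fibroblasts, summed to 1.97 to 20.4 CPM in naive and 32.9 to 81.0 CPM in iGCB libraries. In naive libraries 1 to 5 of them were at 0, and in iGCB 0 to 2. Col1a1, Col1a2 and Sparc rose in both genotypes, and Col5a1 and Dcn in KO. The other fibroblast markers were not called or, for Lum, not tested. Postn, Thbs1 and Pdgfra were below 0 in WT. The 10 T and NK cell markers summed to 12.3 to 62.2 CPM in naive and 267 to 423 CPM in iGCB libraries, of which Thy1 alone gave 257 to 413 CPM, with 0 or 1 at 0. Most of the list went the other way. Cd3d, Cd3e, Cd3g, Cd4, Cd8a and Trac fell in both genotypes, in WT by 2.43 (Trac) to 6.26 (Cd4) on the log2 scale, and Nkg7 fell in WT. Thy1 and Gzma rose in both genotypes, and Klrb1c was not called. The part of these cells in the members' change was not tested.

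**Figure D2:**
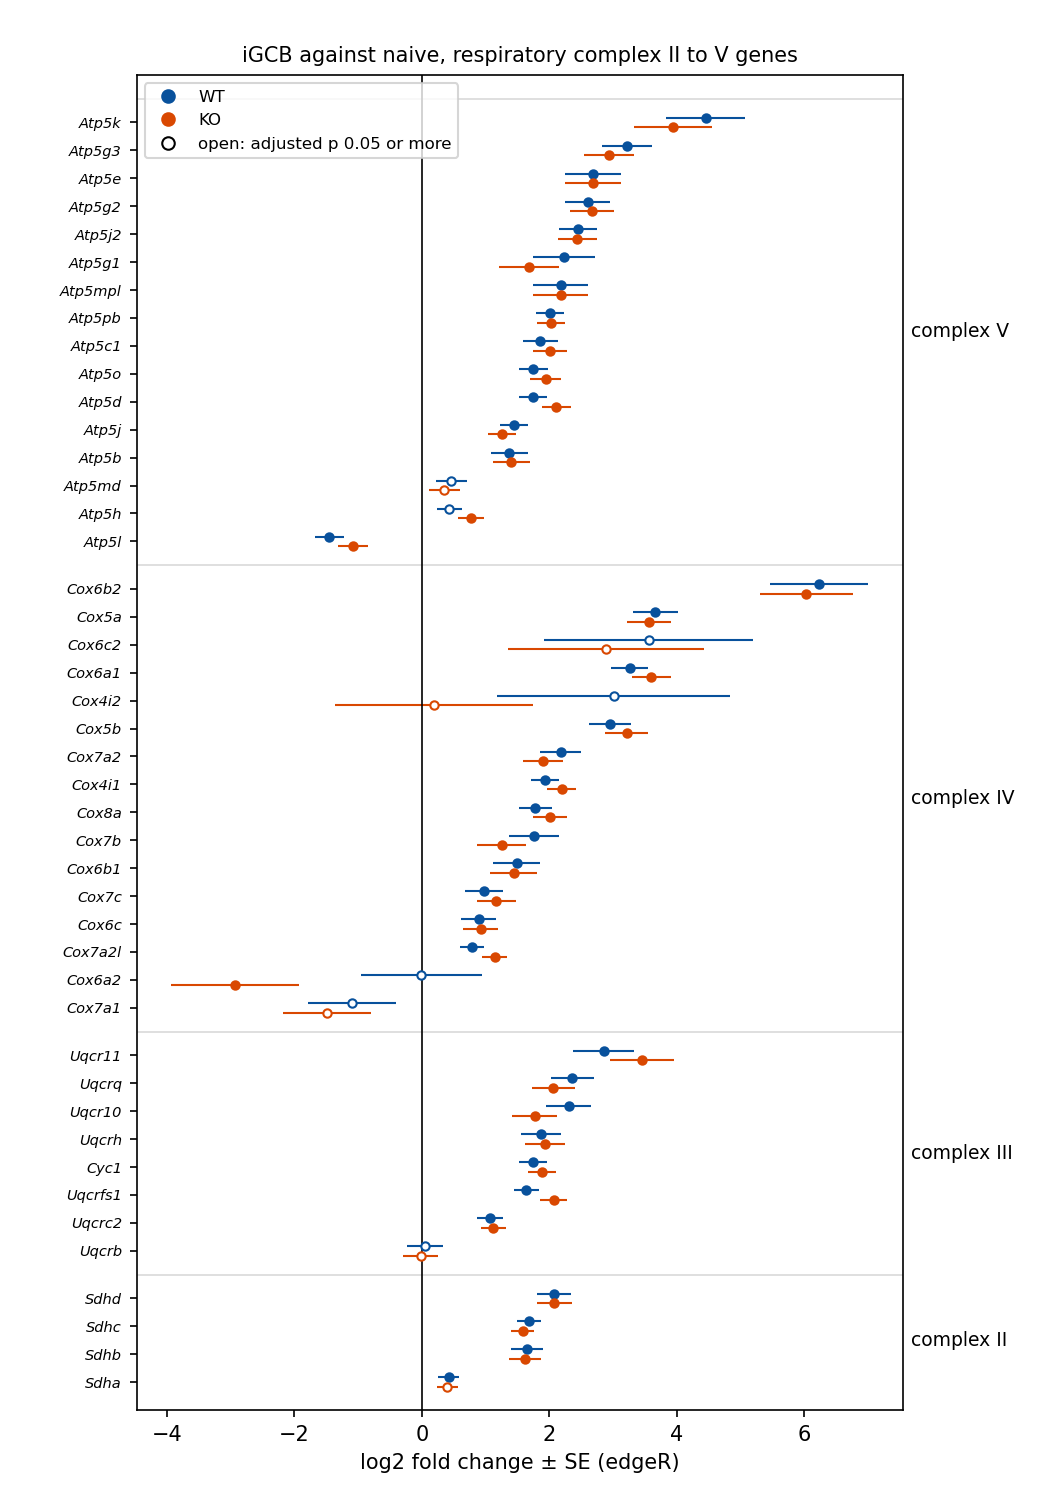
Log2 fold change of iGCB against naive cells (± SE, edgeR) for 44 members by complex, in WT (blue) and KO (orange) cells, with open points for an adjusted p of 0.05 or more. Most members lie between 1 and 4 in both genotypes, while Atp5l lies at -1.45 and -1.08 and Uqcrb at 0.05 and -0.02; Atp5a1 is not drawn because its counts were near 0 in most libraries.

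In complex II, Sdha, the flavoprotein catalytic subunit, moved least. Its levels were 180 and 152 CPM in naive WT cells, 161 and 137 in naive KO cells, 202, 207 and 254 in iGCB WT cells, and 197, 207 and 189 CPM in iGCB KO. The log2 fold change was 0.42 (SE 0.16, adjusted p = 0.0485) in WT and 0.40 (SE 0.16, adjusted p = 0.0534) in KO. The WT call was lost without naive WT 2 (adjusted p = 0.249), iGCB WT 1 (0.0526), iGCB WT 2 (0.0637) or iGCB WT 3 (0.137). Sdhb, the iron-sulfur subunit that takes electrons from Sdha, was at 28.9 and 20.1 CPM in naive WT cells, 26.9 and 16.6 in naive KO cells, 68.0, 70.3 and 92.8 in iGCB WT cells, and 64.4, 71.1 and 65.6 CPM in iGCB KO. It rose by 1.65 (SE 0.25) in WT and 1.62 (SE 0.25) in KO.

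The membrane anchors of complex II, Sdhc and Sdhd, bind the complex to the inner membrane and to ubiquinone. Sdhc was at 27.5 and 23.2 CPM in naive WT cells, 28.2 and 22.8 in naive KO cells, 76.9, 83.3 and 83.0 in iGCB WT cells, and 68.6, 88.7 and 70.8 CPM in iGCB KO. Sdhd was at 24.8 and 17.8 CPM in naive WT cells, 25.4 and 16.6 in naive KO cells, 74.5, 77.7 and 117 in iGCB WT cells, and 84.0, 101 and 83.0 CPM in iGCB KO. Naive and iGCB libraries of either gene did not overlap, and iGCB WT 3 was the highest for Sdhd but not for Sdhc. The rises were 1.68 (SE 0.19) and 1.58 (SE 0.18) for Sdhc and 2.07 (SE 0.27) and 2.08 (SE 0.27) for Sdhd, in WT and KO. Per length, the lowest of the 4 genes in iGCB WT was Sdhc at 24.9 CPM per kb and the highest was Sdhd at 72.9, while in naive WT Sdha was highest at 40.2 CPM per kb.

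In complex III the catalytic subunits rose together. Cyc1, which carries the haem of cytochrome c1, went from 22.2 ± 4.99 to 74.2 ± 12.3 CPM in WT (1.74, SE 0.22) and rose by 1.88 (SE 0.22) in KO. Uqcrfs1, the Rieske iron-sulfur protein, was at 32.6 and 27.9 CPM in naive WT cells, 22.6 and 20.6 in naive KO cells, 90.0, 96.6 and 97.0 in iGCB WT cells, and 94.9, 108 and 69.0 CPM in iGCB KO. It rose by 1.64 (SE 0.20) in WT and 2.07 (SE 0.21) in KO. Uqcrc2, the core subunit that passed the rule, rose by 1.07 (SE 0.20) and 1.12 (SE 0.20). Its partner Uqcrc1, which every cell with complex III uses, is listed at 0 in 9 libraries, so a listed 0 in this table does not show that a gene is silent.

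The small subunits of complex III spread from no call to the largest rise in the complex. Uqcr11 was at 7.75 and 2.97 CPM in naive WT cells, 3.18 and 2.04 in naive KO cells, 26.1, 29.1 and 61.5 in iGCB WT cells, and 29.4, 29.0 and 27.6 CPM in iGCB KO. It rose by 2.85 (SE 0.48) in WT and 3.45 (SE 0.50) in KO, with iGCB WT 3 far above the other 5 iGCB libraries, and the WT rise was 3.71 without naive WT 1. Uqcrq, which lies beside cytochrome b, was at 14.3 and 8.4 CPM in naive WT cells, 16.2 and 8.99 in naive KO cells, 48.0, 49.6 and 77.8 in iGCB WT cells, and 49.5, 60.4 and 47.7 CPM in iGCB KO. Its rise was 2.36 (SE 0.34) in WT and 2.06 (SE 0.34) in KO. Uqcr10 was at 18.3 and 10.2 CPM in naive WT cells, 19.5 and 12.4 in naive KO cells, 56.0, 52.3 and 102 in iGCB WT cells, and 50.8, 58.6 and 53.8 CPM in iGCB KO (2.30, SE 0.36 in WT; 1.77, SE 0.35 in KO).

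Uqcrh, the acidic hinge protein, rose by 1.87 (SE 0.31) and 1.93 (SE 0.31). Uqcrb, a ubiquinone-binding small subunit, was the member of complex III that was not called. Its levels were 53.8 and 38.4 CPM in naive WT cells, 60.0 and 32.7 in naive KO cells, 40.1, 46.4 and 57.2 in iGCB WT cells, and 35.9, 50.3 and 51.2 CPM in iGCB KO. The ranges of the 4 groups overlapped, with differences of 0.05 (SE 0.28) in WT and -0.02 (SE 0.28) in KO. Its exons share 50 bases with Gm10767 on the other strand.

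In complex IV all 10 common isoforms rose in both genotypes. Cox5a, a subunit on the matrix side, was at 6.89 and 4.08 CPM in naive WT cells, 4.84 and 4.73 in naive KO cells, 51.6, 56.6 and 100 in iGCB WT cells, and 52.4, 66.6 and 50.1 CPM in iGCB KO. It rose by 3.66 (SE 0.35) in WT and 3.56 (SE 0.35) in KO, about 12.6 and 11.8 times. Cox6a1, the common form of a subunit that is replaced by Cox6a2 in muscle, was at 18.0 and 12.8 CPM in naive WT cells, 16.5 and 8.65 in naive KO cells, 141, 132 and 170 in iGCB WT cells, and 157, 165 and 137 CPM in iGCB KO. Its rise was 3.26 (SE 0.29) and 3.60 (SE 0.30). It stood 17th per length among the 45 members in naive WT, at 22.0 CPM per kb, and 3rd in iGCB WT, at 210 CPM per kb.

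Cox5b, which binds zinc, rose by 2.95 (SE 0.33) and 3.21 (SE 0.33), and Cox7a2 by 2.18 (SE 0.32) and 1.90 (SE 0.32). Cox4i1, the common form of the regulatory subunit IV, rose by 1.93 (SE 0.22) and 2.19 (SE 0.23), and Cox8a, the gene highest per length in iGCB WT, by 1.78 (SE 0.26) and 2.01 (SE 0.26). Cox7b rose by 1.76 (SE 0.39) and 1.25 (SE 0.38), and Cox6b1 by 1.49 (SE 0.37) and 1.44 (SE 0.37). The smallest rises among the common isoforms were those of Cox7c (0.98, SE 0.30, and 1.17, SE 0.30) and Cox6c (0.89, SE 0.27, and 0.92, SE 0.27). The WT call of Cox7c was lost without naive WT 1 (adjusted p = 0.0515) or naive WT 2 (0.0631). For Cox6c the WT call was lost without naive WT 2 (0.121) or iGCB WT 3 (0.0543), and the KO call without naive KO 2 (0.117) or iGCB KO 2 (0.0515). In KO cells, leaving out naive KO 2 also ended the calls of Cox7b (0.128) and Cox6b1 (0.0563), and Cox7b was lost without iGCB KO 2 (0.0536).

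Cox6b2, known as the testis form of subunit VIb, had the largest rise of any member. It was at 0.439 and 0.0504 CPM in naive WT, from 26 and 2 counts, and at 0.358 and 1.48 CPM in naive KO, from 22 and 66 counts. In iGCB cells it was at 25.8, 12.7 and 22.4 CPM in WT and 47.7, 78.5 and 50.0 CPM in KO, with every KO library above every WT library. The log2 fold change from naive to iGCB was 6.23 (SE 0.77, adjusted p = 7.92e-05) in WT and 6.03 (SE 0.73, adjusted p = 7.12e-05) in KO. Leaving out single libraries gave 5.52 (without naive WT 2) to 8.57 (without naive WT 1) in WT, and 5.32 (without naive KO 1) to 7.35 (without naive KO 2) in KO. Against its common paralog Cox6b1, and per length, Cox6b2 made up 0.421% and 0.0961% of the pair in naive WT cells, 0.412% and 2.34% in naive KO cells, 13.7%, 7.11% and 6.35% in iGCB WT cells, and 20.4%, 24.6% and 22.1% in iGCB KO. The share therefore lay higher in all iGCB libraries than in all naive libraries, and Cox6b1 remained the larger of the pair everywhere.

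Other tissue forms stayed low. Cox6a2, the heart and muscle form of subunit VIa, was at 0.946 and 1.26 CPM in naive WT cells, 1.73 and 0.717 in naive KO cells, 0.818, 0.724 and 1.73 in iGCB WT cells, and 0.171, 0.306 and 0 CPM in iGCB KO. It fell in KO cells between the stages (log2 fold change -2.93, SE 1.0, adjusted p = 0.0282), a call lost without naive KO 1 (0.147) or iGCB KO 1 (0.0695), and stood at -0.01 (SE 0.95) in WT. Cox6a2 shares 70 exon bases with Itgad on the other strand. Cox7a1, the muscle form of subunit VIIa, was at 0.878 and 1.34 CPM in naive WT cells, 1.17 and 1.77 in naive KO cells, 0.35, 0.306 and 0.888 in iGCB WT cells, and 0.656, 0.582 and 0.324 CPM in iGCB KO, and was not called (-1.09, SE 0.69; -1.49, SE 0.69). Cox4i2, the lung form of subunit IV, had 0 to 28 counts in a library, and Cox6c2 had 0 to 17, with no call in either.

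Cox7a2l, also called SCAF1, joins complexes III and IV into supercomplexes. It was at 176 and 127 CPM in naive WT cells, 181 and 146 in naive KO cells, 263, 262 and 262 in iGCB WT cells, and 355, 406 and 318 CPM in iGCB KO. All 4 naive libraries lay below all iGCB libraries, and the rise was 0.79 (SE 0.19) in WT and 1.14 (SE 0.19) in KO. Per length it was the highest member in naive WT, at 102 CPM per kb, and the fifth in iGCB WT, at 177 CPM per kb.

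**Figure D3:**
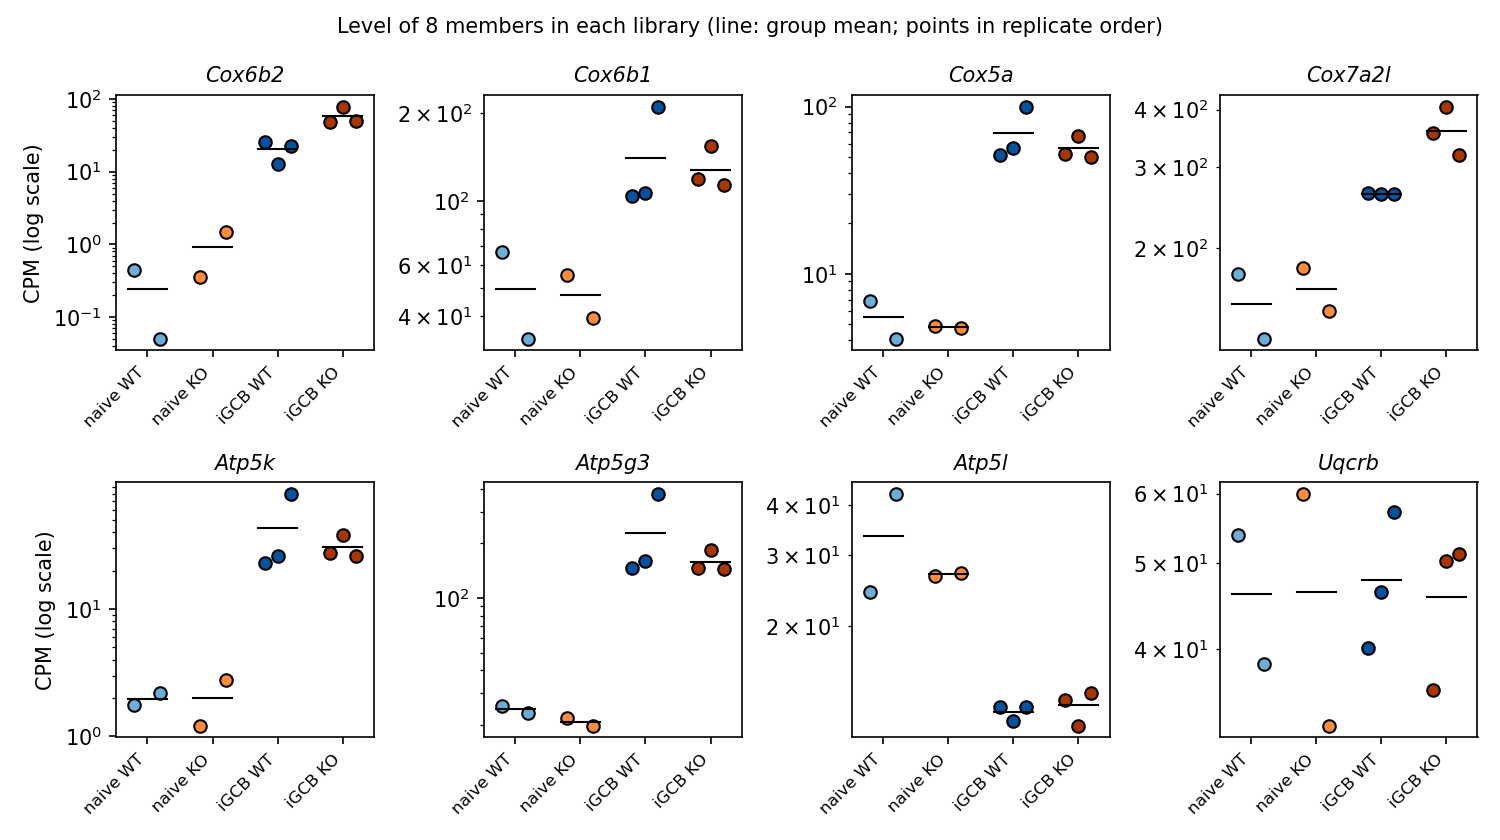
Level in CPM (log scale, each panel with its own range) of 8 members in each library, with a line at the group mean. Cox6b2, Cox6b1, Cox5a, Cox7a2l, Atp5k and Atp5g3 are higher in all iGCB libraries than in all naive libraries, Atp5l is lower in all of them, and Uqcrb overlaps; Cox6b2 and Cox7a2l are also higher in all 3 iGCB KO than in all 3 iGCB WT libraries.

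In complex V, the catalytic F1 head was described by Atp5b, Atp5c1, Atp5d and Atp5e. Atp5b, the catalytic beta subunit and the member with the highest CPM, was at 478 and 252 CPM in naive WT cells, 410 and 239 in naive KO cells, 863, 909 and 1050 in iGCB WT cells, and 860, 928 and 791 CPM in iGCB KO. It rose by 1.37 (SE 0.29) in WT and 1.40 (SE 0.29) in KO. Atp5c1, the gamma subunit of the rotating central stalk, rose by 1.86 (SE 0.27) and 2.01 (SE 0.27), and Atp5d, the delta subunit, by 1.74 (SE 0.22) and 2.11 (SE 0.23). Atp5e, the epsilon subunit, was at 14.5 and 10.2 CPM in naive WT cells, 13.9 and 7.8 in naive KO cells, 51.2, 60.4 and 126 in iGCB WT cells, and 68.4, 90.4 and 51.6 CPM in iGCB KO (2.68, SE 0.44 in WT; 2.69, SE 0.44 in KO).

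Atp5a1, the alpha subunit that alternates with beta in the F1 head, gave a different reading. It had 393 and 22 counts in naive WT cells, 2 and 0 in naive KO cells, 0, 2 and 4 in iGCB WT cells, and 0, 2 and 3 in iGCB KO. Its fall in WT was called (adjusted p = 0.00353), but its counts come almost wholly from naive WT 1, and without that library the adjusted p was 0.192. ATP synthase cannot be built without this subunit and Atp5b was abundant in every library, so its counts are given as listed and no fold change is drawn from them. Its exons share 129 bases with Haus1 on the other strand.

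Members of the peripheral stalk, which holds the head still, mostly rose. Atp5pb, the b subunit, rose by 2.01 (SE 0.22) in WT and 2.02 (SE 0.22) in KO, Atp5o, the oligomycin sensitivity protein, by 1.75 (SE 0.23) and 1.94 (SE 0.24), and Atp5j, coupling factor F6, by 1.44 (SE 0.22) and 1.25 (SE 0.22). Atp5h, the d subunit, was at 103 and 89.0 CPM in naive WT cells, 84.3 and 78.9 in naive KO cells, 115, 115 and 157 in iGCB WT cells, and 124, 172 and 121 CPM in iGCB KO. The KO rise of 0.77 (SE 0.21, adjusted p = 0.0091) was called and the WT difference of 0.43 (SE 0.20, adjusted p = 0.0944) was not. The KO call was lost without naive KO 2 (0.0591), and the difference between the 2 contrasts was 0.34 (SE 0.29, adjusted p = 0.971).

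The small membrane subunits, which shape ATP synthase dimers and the cristae, held both the largest rise and the one fall of the complex that rests on ample counts. Atp5k, the e subunit, was at 1.77 and 2.19 CPM in naive WT cells, 1.21 and 2.78 in naive KO cells, 22.9, 26.1 and 80.3 in iGCB WT cells, and 27.6, 37.7 and 25.8 CPM in iGCB KO. It rose by 4.45 (SE 0.62) in WT and 3.94 (SE 0.61) in KO, and by 3.63 in WT without iGCB WT 3, the lowest of the WT fits that left out 1 library. The KO rise was 4.65 without naive KO 2. Atp5l, the g subunit that pairs with it, was at 24.3 and 42.7 CPM in naive WT cells, 26.7 and 27.1 in naive KO cells, 12.6, 11.6 and 12.6 in iGCB WT cells, and 13.1, 11.3 and 13.6 CPM in iGCB KO. Every iGCB library lay below every naive library, and the change was -1.45 (SE 0.23, adjusted p = 0.000424) in WT and -1.08 (SE 0.23, adjusted p = 0.00262) in KO. Atp5l exons share 133 bases with Gm30934 on the other strand. Such sharing was not particular to members that fell or were not called. Exons of 14 of the 45 members share bases with another gene on either strand. Among them Uqcrc2, Atp5j, Atp5o, Atp5pb, Cox4i1, Cox5a and Cox6c rose in both genotypes. Each of these shares more bases with a gene on the other strand than Atp5l does. Atp5j2, the f subunit, rose by 2.45 (SE 0.30) and 2.44 (SE 0.30), and Atp5mpl by 2.18 (SE 0.43) in both. Atp5md, also called DAPIT, was not called (0.46, SE 0.24; 0.35, SE 0.24), with every iGCB library above every naive library.

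The c ring, which turns as protons pass, is made of 1 mature protein encoded by 3 genes. Atp5g1 was at 16.6 and 6.35 CPM in naive WT cells, 17.6 and 8.67 in naive KO cells, 37.2, 42.7 and 82.3 in iGCB WT cells, and 38.5, 50.3 and 37.9 CPM in iGCB KO. Atp5g2 was at 13.6 and 11.5 CPM in naive WT cells, 13.1 and 8.45 in naive KO cells, 47.9, 66.5 and 114 in iGCB WT cells, and 63.8, 76.7 and 65.5 CPM in iGCB KO. Atp5g3 was at 25.5 and 23.2 CPM in naive WT cells, 21.7 and 19.7 in naive KO cells, 146, 160 and 377 in iGCB WT cells, and 146, 183 and 144 CPM in iGCB KO. All 3 rose in both genotypes, Atp5g3 most (3.22, SE 0.39 in WT; 2.93, SE 0.39 in KO), then Atp5g2 (2.60, SE 0.35; 2.67, SE 0.35) and Atp5g1 (2.23, SE 0.48; 1.68, SE 0.47). The KO call of Atp5g1 was lost without naive KO 2 (adjusted p = 0.0806).

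Per length, Atp5g3 supplied 52.7% ± 5.0 of c subunit transcripts in the 4 naive libraries and 61.7% ± 3.4 in the 6 iGCB libraries (SD), and the 2 ranges, 46.6% to 57.1% and 58.6% to 67.0%, did not overlap. The difference of 9.0 percentage points had p = 0.00952 in a two-sided exact permutation test, the smallest p that 4 against 6 libraries allow, and an adjusted p of 0.0571 over 6 tests of shares. Atp5g1 went from 12.3% ± 4.3 to 7.0% ± 0.3 (exact permutation p = 0.0476, adjusted p = 0.12) and Atp5g2 from 35% ± 2.3 to 31.3% ± 3.4 (exact permutation p = 0.0762, adjusted p = 0.12). None of the 3 passed after adjustment. The test took all 10 libraries as exchangeable, although naive libraries numbered 1 had the female pattern and all iGCB libraries the male. In naive WT and KO, the Atp5g3 share was 50.5% and 46.6% in number 1 and 56.5% and 57.1% in number 2. For Atp5g1 it was 14.6% and 16.8% against 6.9% and 11.1%, and for Atp5g2 34.9% and 36.6% against 36.6% and 31.8%. The part of sex or number in the stage differences was not tested. Between iGCB KO and WT, Atp5g2 was 33.7% ± 0.9 against 28.9% ± 3.2, and Atp5g3 59.3% ± 0.7 against 64.1% ± 3.5, each with an exact permutation p = 0.1, the smallest that 3 against 3 libraries allow. The size of each share depends on the length used, which takes in all annotated exons of a gene. By counts without length, Atp5g1 held 15.5% to 33.6% in naive and 14.4% to 16.2% in iGCB libraries. Atp5g3 held 41.4% to 56.4% and 58.3% to 65.7%, ranges that also did not overlap.

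**Figure D4:**
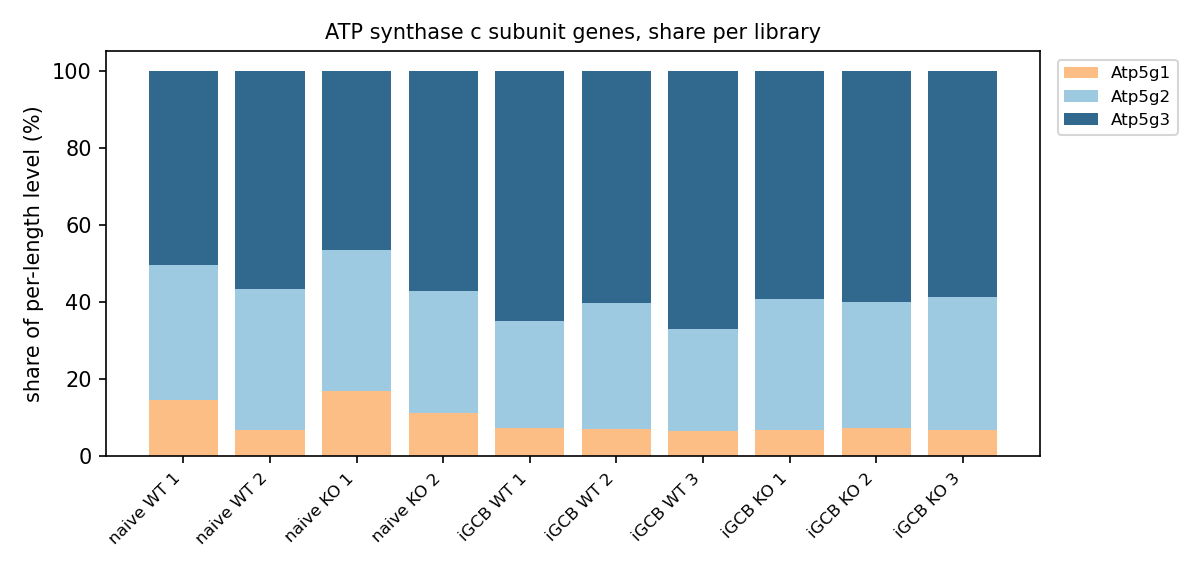
Share of the summed per-length level of the 3 ATP synthase c subunit genes held by Atp5g1, Atp5g2 and Atp5g3, in percent, by library. The Atp5g3 share is 46.6% to 57.1% in the naive and 58.6% to 67.0% in the iGCB libraries.

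Genes that work with these subunits were read from lists of related genes, 58 of which were tested beside the members. Of the 6 mitochondrially encoded subunits of complexes III to V, 5 rose in WT and in KO (median 2.21 and 2.08), beside 24.7% and 24.8% of all genes. mt-Co2 rose by 3.57 (SE 0.35) in WT and mt-Atp8 by 4.34 (SE 0.85), whereas mt-Co1, the catalytic core of complex IV, stood at -0.14 (SE 0.22) and 0.29 (SE 0.22) without a call. The counting of these genes was uneven, since mt-Co1 was at 13100 to 21600 CPM and mt-Co2 at 1.17 to 25.9 CPM over the 10 libraries, although both come from 1 polycistronic transcript. Their values are given as listed.

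Assembly factors were read by complex. Among all genes tested 24.7% rose and 31.7% fell in WT, and 24.8% and 31.4% in KO, with medians of -0.25 and -0.26. The median log2 fold changes of the factors for II to V were 0.59, 0.36, 0.78 and 1.59 in WT. In KO they were 0.80, 0.30, 0.99 and 1.24. For complex II, 2 of 4 rose in WT and 3 of 4 in KO, led in WT by Sdhaf4, which helps mature Sdha (1.74, SE 0.42). For complex III, 2 of 6 rose in WT, near the share over all genes, and 3 rose in KO. Uqcc3 led them (1.24, SE 0.30 in WT), and Ttc19 fell in both (-1.03, SE 0.25 in WT). For complex IV, 11 of 21 rose in WT and 12 in KO, among them Higd1a (4.07, SE 0.34 in WT), Coa6 (2.45, SE 0.39) and Cmc2 (2.21, SE 0.34), while Coa7 fell (-0.89, SE 0.26 in WT). For complex V, 3 of 5 rose in WT and 4 in KO, and Tmem70, needed to build the c ring into the enzyme, went from 7.18 and 3.55 CPM in naive WT to 51.2, 44.0 and 48.4 CPM in iGCB WT (3.15, SE 0.28). Partners under other names all rose, 4 of 4 in each genotype: cytochrome c (Cycs, 2.15, SE 0.37 in WT), Ndufa4 (2.17, SE 0.37), the ATP synthase inhibitor Atpif1 (1.37, SE 0.29) and Dmac2l (1.24, SE 0.34).

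Of 12 regulators of nuclear respiratory genes tested, 2 rose and 6 fell in WT, beside 24.7% and 31.7% of all genes. In KO 2 rose and 3 fell, beside 24.8% and 31.4% of all genes, and the difference between the genotypes was not called for any of the 12. Among them the coactivators fell: Ppargc1b by 2.58 (SE 0.31), Ppargc1a by 1.86 (SE 0.50) and Pprc1 by 1.08 (SE 0.23) in WT. Nrf1, the factor whose word is marked in the promoters above, stood at -0.68 (SE 0.20, adjusted p = 0.0136) in WT and -0.42 (SE 0.20, adjusted p = 0.0951) in KO. Gabpa, the ETS subunit of GABP, was at 91.6 to 157 CPM in naive and 105 to 131 CPM in iGCB libraries and was not called (-0.12, SE 0.23 in WT). Its exons share bases with those of the member Atp5j on the other strand. Yy1 rose by 0.68 (SE 0.24) and Tfam, which packages mitochondrial DNA, by 0.49 (SE 0.18) in WT. Tfb2m and Myc, the remaining genes that fell in WT, were at -0.55 (SE 0.21) and -0.52 (SE 0.15).

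The second question was how loss of Pcbp1 bore on these genes. In naive cells 0 of 45 members were called by edgeR, against 0.0476% of all genes tested (0.0143% higher and 0.0333% lower). At an unadjusted p under 0.05 there were 3, Uqcrfs1, Cox6b2 and Atp5a1, against 5.55% of all genes, and DESeq2 called 1, Atp5a1. The member median was -0.11 on the log2 scale and the median of all genes -0.05. By complex the medians were -0.09 for II, -0.16 for III, -0.08 for IV and -0.17 for V. Both KO libraries lay below both WT libraries for 5 members, Uqcrfs1, Cox7c, Atp5a1, Atp5g3 and Atp5h, against 12.7% of all genes, and above for 0, against 11.5%. Compared within a number, the member median of KO minus WT was -0.11 for the libraries numbered 1 and -0.10 for those numbered 2. Of the 45 members, 23 were below 0 in both numbers and 6 above 0 in both, beside 5985 and 4826 of the 21010 genes tested. The share below 0 in both was thus larger among members than among all genes, and the share above 0 in both smaller. The members shared the same libraries, so these counts are not independent results. The sign of the member median also changed with the fit. It was 0.03 with library size alone as the scaling, beside 0.07 for all genes. Without naive WT 1 it was 0.13, and without naive KO 2 it was 0.1.

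Uqcrfs1 had a naive KO difference of -0.49 (SE 0.21, adjusted p = 0.854 by edgeR), from 32.6 and 27.9 CPM in WT to 22.6 and 20.6 CPM in KO. Uqcr11 stood at -1.04 (SE 0.48, adjusted p = 0.911), with naive WT 1 at 7.75 CPM and the other 3 naive libraries at 2.04 to 3.18 CPM. In complex II, Sdha was at -0.15 (SE 0.18) and Sdhb at -0.17 (SE 0.26). Cox6b2 was at 1.73 (SE 0.78, adjusted p = 0.886), with 66 counts in naive KO 2. It was 0.41 without that library, 1.0 without naive WT 2 and 4.05 without naive WT 1, and it was called without the filter on low counts (adjusted p = 0.00173). Cox4i2 was at 2.23 (SE 1.87) from 0 to 28 counts, and Atp5l at -0.32 (SE 0.26). Myeloid markers also differed within the naive groups, at 374 and 253 CPM in WT and 498 and 51.2 CPM in KO. B cell markers, a list that holds Cd79a, did not overlap, at 8200 and 6590 CPM in WT and 5510 and 5460 CPM in KO. The part of either cell content in these values was not tested.

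In iGCB cells 0 of 45 members were called by edgeR between KO and WT, against 1.27% of all genes tested (0.343% higher and 0.923% lower). DESeq2 also called 0. At an unadjusted p under 0.05 there were 3, Cox6b2, Cox6a2 and Cox7a2l, all of complex IV, against 9.76% of all genes. The member median was -0.11 and that of all genes 0.00, with medians by complex of -0.13, -0.11, -0.03 and -0.13 for II to V. Without iGCB WT 3 the member median was 0.11, so its sign rests on that library. Among the 40 members at 10 CPM or more on average in iGCB WT, the SE ranged from 0.14 to 0.49. For the 38 of them other than Cox6b2 and Cox7a2l, the difference lay between -0.53 and 0.19.

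Cox6b2 was higher in all 3 iGCB KO libraries, at 47.7, 78.5 and 50.0 CPM, than in the WT libraries at 25.8, 12.7 and 22.4 CPM. The difference was 1.53 (SE 0.49), with an adjusted p of 0.241 by edgeR over 4 groups and 0.0748 by DESeq2. It passed the threshold in a fit of the 6 iGCB libraries alone (1.54, adjusted p = 0.00721), in the male libraries alone (adjusted p = 0.00934) and without the filter on low counts (adjusted p = 1.42e-07). With 1 library left out it did not pass in any fit, with an adjusted p of 0.362 to 0.674 and a difference of 1.25 to 1.74. Per length, its share of the Cox6b1 and Cox6b2 pair was 9.06% ± 4.06 in WT iGCB cells and 22.4% ± 2.1 in KO iGCB cells (SD over 3 libraries in each).

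Cox7a2l was also higher in all 3 iGCB KO libraries, at 355, 406 and 318 CPM, than in WT at 262 to 263 CPM. The difference was 0.45 (SE 0.16, adjusted p = 0.336). Cox6a2 was lower, with 6, 10 and 0 counts in KO and 28, 26 and 70 in WT (-2.76, SE 0.95, adjusted p = 0.302). Members with KO above WT in every library numbered 2, Cox6b2 and Cox7a2l, against 10.2% of all genes, and members with KO below WT in every library 1, Cox6a2, against 10.3%. None of the 45 therefore passed the threshold over all genes, and the shares without overlap were near or under the background.

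Other members with the smallest p in their complex were not called in iGCB cells. Sdha was at -0.16 (SE 0.14) and Sdhb at -0.20 (SE 0.21). Uqcr11 was at -0.44 (SE 0.38) and Uqcr10 at -0.36 (SE 0.29), and without iGCB WT 3 these became 0.05 and 0.01. Atp5g3 was at -0.53 (SE 0.30), or 0.04 without iGCB WT 3, and Atp5j at -0.25 (SE 0.19). Cox7a2 was at -0.49 (SE 0.26), with 49.9, 55.9 and 102 CPM in WT and 50.7, 55.6 and 41.5 CPM in KO, where iGCB WT 3 was the highest. Fibroblast markers summed to 42.5 to 81.0 CPM in iGCB WT and 32.9 to 74.8 CPM in iGCB KO, ranges that overlap. Myeloid markers summed to 7.3, 19.6 and 20.7 CPM in WT and 55.2, 17.2 and 52.7 CPM in KO, which also overlap, with 2 of 3 KO libraries above all WT libraries. B cell markers did not overlap, at 4050 to 4430 CPM in WT and 4630 to 4990 CPM in KO. This order was the reverse of that in naive cells, and Cd79a in the list was lower in KO at both stages. T and NK cell markers, a sum that was mostly Thy1, were at 289 to 423 CPM in WT and 267 to 335 CPM in KO. Erythroid and platelet markers summed to 0.526 to 2.42 CPM in WT and 1.68 to 6.0 CPM in KO. Their part in the members' values was not tested.

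**Figure D5:**
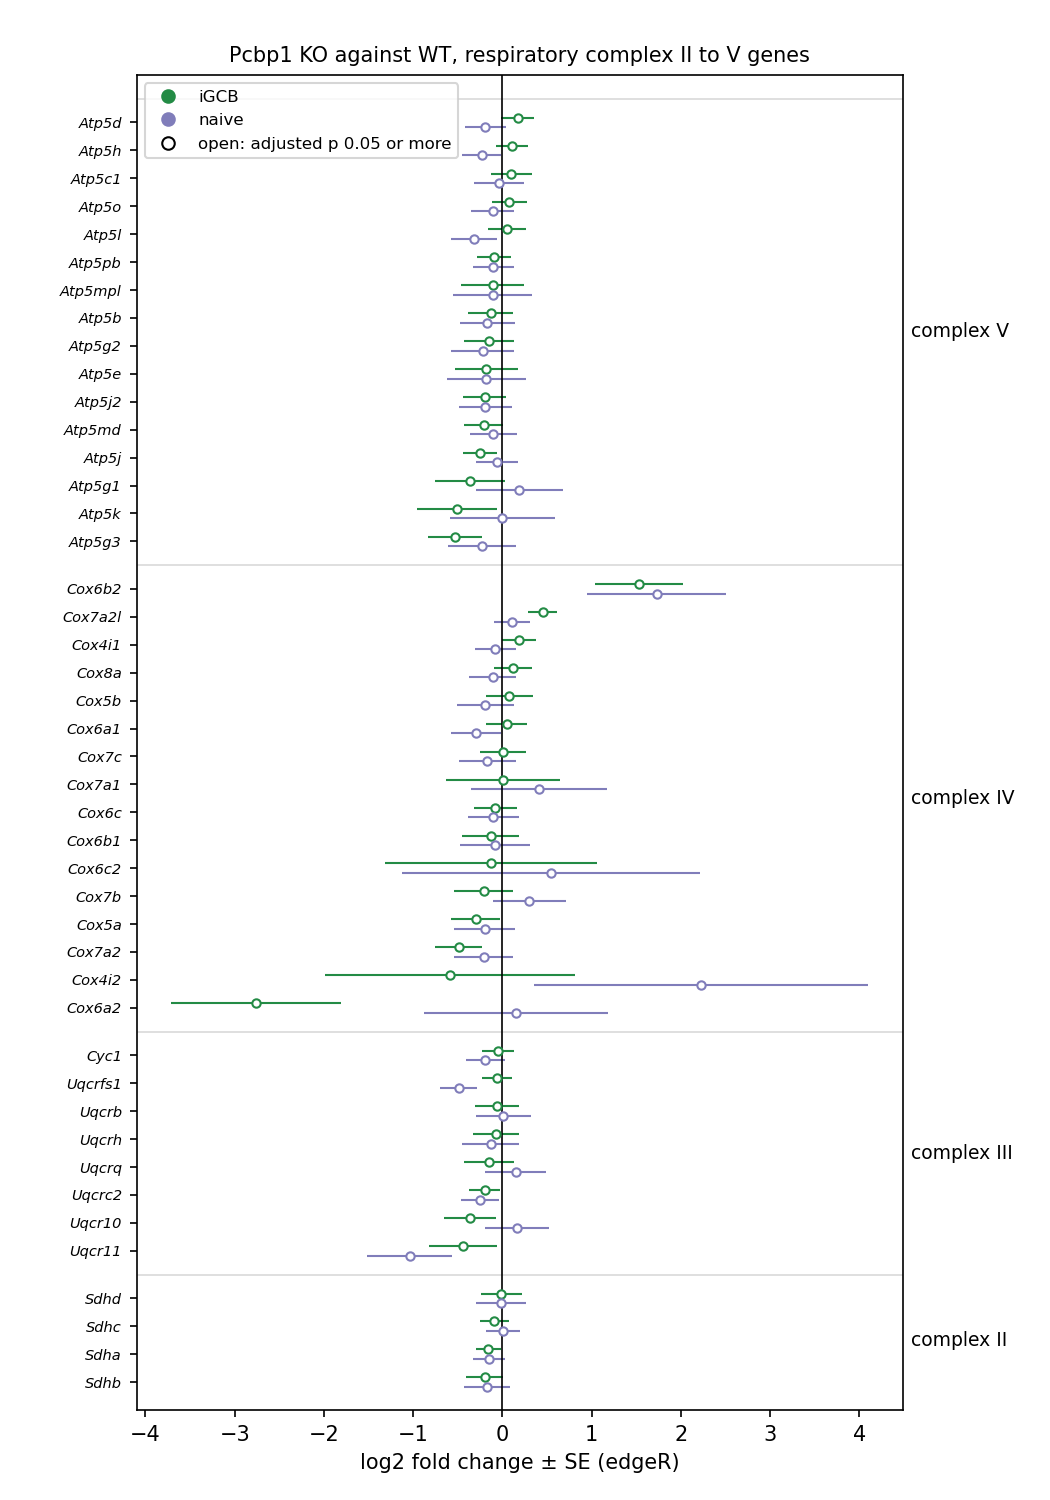
Log2 fold change of Pcbp1 KO against WT (± SE, edgeR) for 44 members by complex, in iGCB (green) and naive (violet) cells, all open because no adjusted p was under 0.05. Most points lie within 0.5 of 0. Points further out include Cox6b2 at 1.53 in iGCB and 1.73 in naive cells, and Cox6a2 at -2.76 in iGCB cells. In naive cells Cox4i2 lies at 2.23 (SE 1.87) and Uqcr11 at -1.04. Atp5a1 is not drawn because its counts were near 0 in most libraries.

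The last comparison asked whether the KO difference changed between the stages. By edgeR 0 of 45 members were called, against 0.0333% of all genes (0.0143% higher and 0.019% lower), and DESeq2 called 0. At an unadjusted p under 0.05 there was 1, Atp5a1, against 6.06% of all genes. The member median of the difference was 0.01, beside 0.04 for all genes. Cox6b2 differed by -0.20 (SE 0.88) between the stages, Cox7a2l by 0.34 (SE 0.26) and Uqcrfs1 by 0.43 (SE 0.27). Cox6a2 differed by -2.91 (SE 1.40, adjusted p = 0.869), Atp5d by 0.37 (SE 0.29), Uqcr10 by -0.53 (SE 0.46), Sdhb by -0.03 (SE 0.34) and Sdhc by -0.10 (SE 0.25). Among the 58 related genes edgeR and DESeq2 called 0 between KO and WT in naive cells, in iGCB cells and for the difference, with 1, 2 and 1 at an unadjusted p under 0.05.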

How the data were processed

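RNA-seq was read from 10 mouse B cell libraries. The authors deposited raw read counts for each symbol, and the submitters' processing notes name featureCounts and mm10. Aligner, annotation, strand setting and versions: not given in the sources used here. Without a stated strand, reads of overlapping genes on opposite strands cannot be told apart. Groups came from the sample descriptions.

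A filter on low counts (filterByExpr, minimum 10) left 21010 genes, all 45 members among them. One quasi-likelihood model of edgeR 4.0.16 (R 4.3.3) covered the 4 groups after TMM scaling, leaving 6 residual degrees of freedom. Tests were two-sided, adjusted by Benjamini-Hochberg over all genes at 0.05. SE is the absolute log2 fold change over the square root of F. CPM uses TMM-scaled totals, and levels per kb use exon lengths of GENCODE M21, which holds 53367 symbols (96.2%). The code was tested on simulated data. Alternatives were DESeq2 1.42.0, other scalings, no filter, a replicate block, a sex term, the compared groups alone, male libraries alone, and each library left out.

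Members and lists were chosen with earlier results of these data known. Values per library are printed for up to 3 called members with the largest change in each complex and comparison, or the 2 with the smallest p where none was called, for tissue-restricted or paralog isoforms, and for some further members chosen after their values were seen. From each related list up to 4 called genes are named, with mt-Co1, Gabpa, Nrf1, Tfb2m, Myc, Yy1, Tfam, Ttc19 and Coa7 added after seeing values. Pairs of replicate libraries differed beyond sampling noise, at 22.1 to 213 chi-square units for each degree of freedom. Matches of library numbers had correlations of deviations of 0.6 for both numbers between naive WT and KO, where a number also shares sex. Between iGCB WT and KO they were 0.5, -0.15 and 0.01, and between stages -0.17 to 0.15. The main fit did not take numbers as pairs, so in naive cells this shared part stayed in the spread. Between naive KO and WT it called 10 of all genes, against 31 with the replicate block and 57 with the sex term.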

Additional observations from a re-analysis of the deposited data

How the results depend on the processing

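For iGCB against naive cells, the counts of members that rose stayed at 33 to 36 in WT and 36 to 38 in KO under the alternatives that kept all libraries of the stage or all male libraries, and at 33 to 35 and 31 to 36 with 1 library left out. The member median was 2.15 in WT and 2.18 in KO with a sex term and 2.08 and 2.21 with male libraries alone, an alternative added after seeing the data. It was 1.53 to 2.08 in WT and 1.70 to 2.21 in KO with 1 library left out. The members that fell numbered 1 in WT with male libraries alone and 1 to 2 with 1 library left out. In KO they numbered 1 with the replicate block, with the compared groups alone and with male libraries alone, and 1 to 2 with 1 library left out. The replicate block gave 33 higher and 2 lower members in WT, 36 higher in KO, and 0 in either KO against WT comparison. Scaling moved the median of all genes between stages from -0.25 (TMM) to -0.34 (DESeq2 factors) in WT, and from -0.26 to -0.36 in KO.

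For KO against WT in naive cells, 1 member was higher (Cox6b2) and 1 lower (Atp5a1) without the filter, and 1 was lower (Atp5a1) by DESeq2 and with a sex term. In iGCB cells 1 was higher (Cox6b2) without the filter, with the compared groups alone and with male libraries alone. For the difference between stages 1 was higher (Atp5a1) without the filter. With 1 library left out, no member was called in these comparisons, and the medians ran from -0.38 to 0.13 in naive cells, from -0.24 to 0.11 in iGCB cells and from -0.25 to 0.34 for the difference.

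Reversals concerned members without a call, and their cause was not tested. With 1 library left out, naive KO differences ran from -0.57 to 0.13 for Sdhb, from -0.67 to 0.14 for Atp5l and from -3.98 to 6.30 for Cox4i2, which was at -4.95 with male libraries alone. In iGCB cells they ran from -0.77 to 0.04 for Atp5g3, from -0.54 to 0.01 for Uqcr10 and from -0.66 to 0.05 for Uqcr11. For the difference they ran from -0.33 to 0.37 for Sdhb, at 0.08 with male libraries alone, and from -0.26 to 0.08 for Sdhc. Shares of c subunit transcripts between stages ran from -7.1 to -3.8 percentage points for Atp5g1 and from -4.8 to -2.7 for Atp5g2, and between iGCB genotypes from -0.2 to 0.2 for Atp5g1. Low counts limit the precision for Cox4i2, Cox6c2, Cox6a2 and Cox7a1. Atp5a1 also had few counts in most libraries, and the cause was not tested.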
